A study of Mus musculus with 2 samples.

Results

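Messenger RNA of 10 genes was described, the MITF family of transcription factors and a set of genes of the osteoclast programme, on 2 Affymetrix mouse arrays. The family comprised Mitf, Tfe3, Tfeb and Tfec, and the programme Tnfrsf11a, Nfatc1, Ocstamp, Acp5, Ctsk and Oscar. Members were selected by gene symbol, as every probe set whose single symbol in the platform annotation was one of the 10, which gave 13 probe sets for 9 of the 10 genes, out of 12393 genes on the array. Tfe3 was not analysed here. The set had been chosen partly because Mitf was low and Tnfrsf11a and Nfatc1 were high in these same data, so the values of those 3 genes are a description and carry no test.

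The cells were RAW 264.7, an established mouse macrophage-like tumour line, and both groups received IFN-gamma at 1000 U/ml for 4 h. One group received IFN-gamma only, and the other received adenosine at 300 uM with it. RNA of 2 separate experiments was pooled for each treatment before hybridization, so each group was 1 array of 1 pool, with no replicate. No array of untreated cells was used here, and no RANKL is named in the treatments, so neither array is of cells driven towards osteoclasts.

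The MITF family are basic helix-loop-helix leucine zipper factors that bind E-box sequences as homodimers or as heterodimers with each other. In the macrophage lineage they act with PU.1 on osteoclast genes, and Tfeb, Tfe3 and Mitf also drive lysosomal genes. Osteoclasts form from macrophage precursors when RANKL binds RANK, the product of Tnfrsf11a. The signal runs through TRAF6, NF-kB and AP-1 to NFATc1, the master factor of the programme, while CSF1 keeps the precursors alive and IFN-gamma is a known inhibitor of the process. RAW 264.7 cells are widely used for this conversion because they become osteoclast-like when RANKL is added.

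Annotated start regions of 8 of the 10 genes, all but Nfatc1 and Ocstamp, were matched in RefSeq (GRCm38.p6), 15 windows in all, each from 250 bases before to 50 after a transcript start. One window is printed for each of Mitf, Tfec and Tnfrsf11a, the 3 of these genes that differed by 2-fold or more between the arrays. One is also printed for Acp5, a known target of MITF. A motif was picked for each gene, only a window holding it was printed, and other matches there are unmarked. Capitals mark 1 motif in each: the full cAMP response element TGACGTCA in Mitf, the STAT6-type site (TTC, any 4 bases, GAA) in Tfec, 1 arm of the cAMP element (TGACG, here read as CGTCA on the other strand) in Tnfrsf11a, and the E-box CATGTG (read as CACATG) in Acp5.
Mitf, chr6:97991533-97991832, plus strand: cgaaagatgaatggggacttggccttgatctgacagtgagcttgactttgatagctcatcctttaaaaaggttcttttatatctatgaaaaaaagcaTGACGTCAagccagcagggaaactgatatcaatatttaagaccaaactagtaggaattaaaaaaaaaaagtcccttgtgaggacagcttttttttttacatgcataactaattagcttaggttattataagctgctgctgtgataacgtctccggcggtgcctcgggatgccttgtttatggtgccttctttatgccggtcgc
Tfec, chr6:16898392-16898691, minus strand: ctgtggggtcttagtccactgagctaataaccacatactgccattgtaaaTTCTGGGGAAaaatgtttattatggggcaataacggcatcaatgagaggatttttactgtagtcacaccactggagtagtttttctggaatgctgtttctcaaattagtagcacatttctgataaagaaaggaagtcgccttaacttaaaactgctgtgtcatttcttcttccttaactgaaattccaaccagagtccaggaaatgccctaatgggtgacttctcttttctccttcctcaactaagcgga
Tnfrsf11a, chr1:105780473-105780772, plus strand: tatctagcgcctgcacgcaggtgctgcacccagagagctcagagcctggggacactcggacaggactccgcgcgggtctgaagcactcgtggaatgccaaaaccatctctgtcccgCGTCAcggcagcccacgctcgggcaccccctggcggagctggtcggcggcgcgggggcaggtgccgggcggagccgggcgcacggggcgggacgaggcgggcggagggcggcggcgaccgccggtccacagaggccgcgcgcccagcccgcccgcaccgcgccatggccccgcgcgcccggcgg
Acp5, chr9:22130549-22130848, minus strand: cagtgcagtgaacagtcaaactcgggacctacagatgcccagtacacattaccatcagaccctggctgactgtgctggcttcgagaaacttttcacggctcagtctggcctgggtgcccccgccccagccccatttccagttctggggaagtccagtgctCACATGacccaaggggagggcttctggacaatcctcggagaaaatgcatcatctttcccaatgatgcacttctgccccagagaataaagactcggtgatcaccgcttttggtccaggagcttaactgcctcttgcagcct

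Motifs were searched on both strands in all 32851 windows of the table, and those of other motifs could overlap, since TGACG lies within TGACGTCA. TGACGTCA was present in 1.79% of all windows and, among the 15 windows of the members, in 1 of the 3 Mitf windows, starting 153 bases before the transcript start. TGACG was in 20.8% of all windows and in 1 of 3 Mitf windows and the Tnfrsf11a window. The STAT6-type site was in 6.95% of all windows and in 1 window each of Tfec, Tfeb and Acp5. Of the E-boxes of the MITF family, CATGTG was in 14.2% of all windows and in 1 of 3 Acp5 windows and the Oscar window, and CACGTG, in 7.15% of all windows, was in none of the members' windows. The pattern TGANTCA (7.81%), looser than the AP-1 site, which has C or G in the middle, was in 1 of 2 Tfe3 windows. That match was TGAATCA, so it is not the AP-1 site itself. The PU.1 core GAGGAA (28.3%) was in the windows of Ctsk, Oscar and Tfec, and the gamma-activated site TTCNNNGAA (8.3%) in none. These matches describe letters in short windows. The arrays do not show which start of Mitf was in use. The printed Mitf window is therefore not known to belong to the start behind the Mitf signals.

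The adenosine array was dimmer throughout, with a median deposited signal of 15.2 against 45.9 over gene probe sets, whereas the log2 ratio of 18 spiked-in hybridization controls was -0.53 at the median, with an SD of 0.19. The median gene log2 ratio, -1.50, was therefore removed by multiplying adenosine signals by 2.82, and signals given as scaled are on that footing. The floor, 44.0, was the 50th percentile of scaled signals. A gene was measured when its brighter array reached the floor, a dimmer signal was raised to it, and a fold that rests on it is given as "at least". Scatter of log2 ratios between probe sets of 1 gene, the only error these data allow, had an SD of 0.52 over 2375 genes, and of 0.57 in the dimmest of 4 groups by signal. All log2 ratios set the adenosine array over the array of IFN-gamma alone.

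Of the 9 members with a probe set, 6 were measured and 3 lay below the floor on both arrays. Among the measured members 3 were at least 2-fold lower with adenosine (Mitf, Tfec and Ocstamp), 2 were at least 2-fold higher (Tnfrsf11a and Nfatc1) and Tfeb was neither. Of all 6818 measured genes, 10.1% lay 2-fold or more on the lower side and 4.52% on the higher side. Since Mitf, Tnfrsf11a and Nfatc1 entered the set through this contrast, nothing is read from the members' counts against those shares. The same holds for the median log2 ratio, which was -0.57 over the 6 measured members and -0.08 over all measured genes. The members' median also rests on the floor, through Ocstamp.

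**Figure D1:**
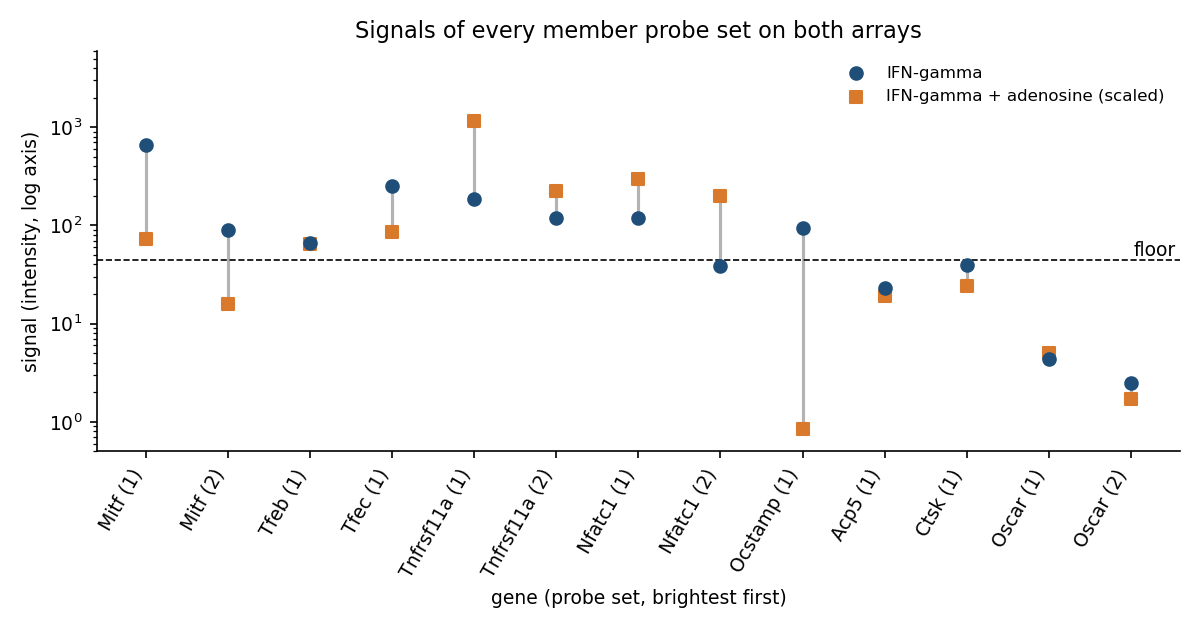
Signal (intensity, log axis) of each of the 13 member probe sets on the IFN-gamma array (circles) and on the adenosine array after scaling (squares), with the floor of 44.0 as a dashed line. Each point is 1 array. Both Mitf probe sets are lower with adenosine, both Tnfrsf11a and both Nfatc1 probe sets are higher, and Acp5, Ctsk and Oscar lie below the floor on both arrays.

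Mitf, the gene that names the family and whose mutations can cause osteopetrosis in mice, had 2 probe sets. The brighter, 1455214_at, read 662.8 with IFN-gamma alone and 25.5 as deposited with adenosine, 71.9 after scaling. This is 9.22-fold lower, a log2 ratio of -3.20, with a scatter SD of 0.55 for probe sets of that signal. The other, 1422025_at, read 89.9 and, after scaling, 15.8, which lies below the floor, so that it was at least 2.04-fold lower (log2 ratio -1.03). Without the floor its scaled log2 ratio was -2.51. Both probe sets thus had the lower signal on the adenosine array. Their log2 ratios differed by 2.17 with the floor applied, a gap that 1.05% of the 2375 genes with a pair of usable probe sets reached or exceeded. Those pairs lay above the floor on both arrays, and the Mitf pair did not. The floor thus widened the gap, and the share is not a like comparison. From the brighter probe set, 8 of the 6818 measured genes, Mitf included, had a log2 ratio as low or lower.

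Tfec, the family member expressed mainly in macrophages, went from 253.7 with IFN-gamma to 30.2 as deposited, or 85.1 after scaling. It was 2.98-fold lower by its 1 probe set, 1419537_at, a log2 ratio of -1.57 with a scatter SD of 0.57. Tfec thus lay with Mitf on the lower side, and 3.04% of measured genes had a log2 ratio as low or lower. With the floor at the 67th percentile, which raises its adenosine signal, the log2 ratio was -0.62 and no longer reached 2-fold.

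Tfeb, best known as a regulator of lysosome formation and autophagy, read 65.9 with IFN-gamma and 64.0 after scaling (22.7 as deposited). Its log2 ratio of -0.04 (1 probe set, 1422566_at) was well within the scatter SD of 0.57, and both signals lay close to the floor. The measured family members therefore differed among themselves, with Mitf and Tfec lower relative to the array median and Tfeb at it. As deposited, with no scaling, the log2 ratios of Mitf, Tfec and Tfeb were -4.70, -3.07 and -1.54 in the same order, with no floor applied.

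Tnfrsf11a, the gene of the RANKL receptor RANK, was the highest of the members. Its brighter probe set, 1430259_at, read 184.3 with IFN-gamma and 405.9 as deposited with adenosine, 1144 after scaling, which is 6.21-fold higher (log2 ratio 2.63, scatter SD 0.52). It was higher also before scaling, by 2.20-fold, although 5605 of 7117 genes measured in the deposited values lay 2-fold or more on the lower side of that array and 10 on the higher. The other probe set, 1419214_at, read 117.9 and 223.0 after scaling (79.1 as deposited), a log2 ratio of 0.92, short of 2-fold and -0.58 as deposited. Both probe sets were above the floor on both arrays and higher relative to the array median. However, their log2 ratios differed by 1.71, a gap that only 2.95% of the 2375 genes with such pairs reached or exceeded. From the brighter one, 5 of 6818 measured genes, Tnfrsf11a included, had a log2 ratio as high or higher. The mean of both probe sets gave 1.78.

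Nfatc1, the transcription factor that RANK signalling induces and that then maintains its own transcription, also had 2 probe sets. With IFN-gamma 1417621_at read 120.1, and with adenosine 105.0 as deposited and 296.0 after scaling, 2.46-fold higher (log2 ratio 1.30, scatter SD 0.57). The second, 1425761_a_at, read 38.9, below the floor, and 198.7 after scaling (70.5 as deposited). It was at least 4.52-fold higher, a log2 ratio of 2.18. Both lay on the higher side after scaling, and 2.08% of measured genes had a log2 ratio as high as the first or higher. In the deposited values the first turned to -0.19 while the second was 0.86 without a floor. Its direction therefore depends on how the arrays are scaled for one probe set and not for the other. With spiked-in scaling the first was 0.33.

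**Figure D2:**
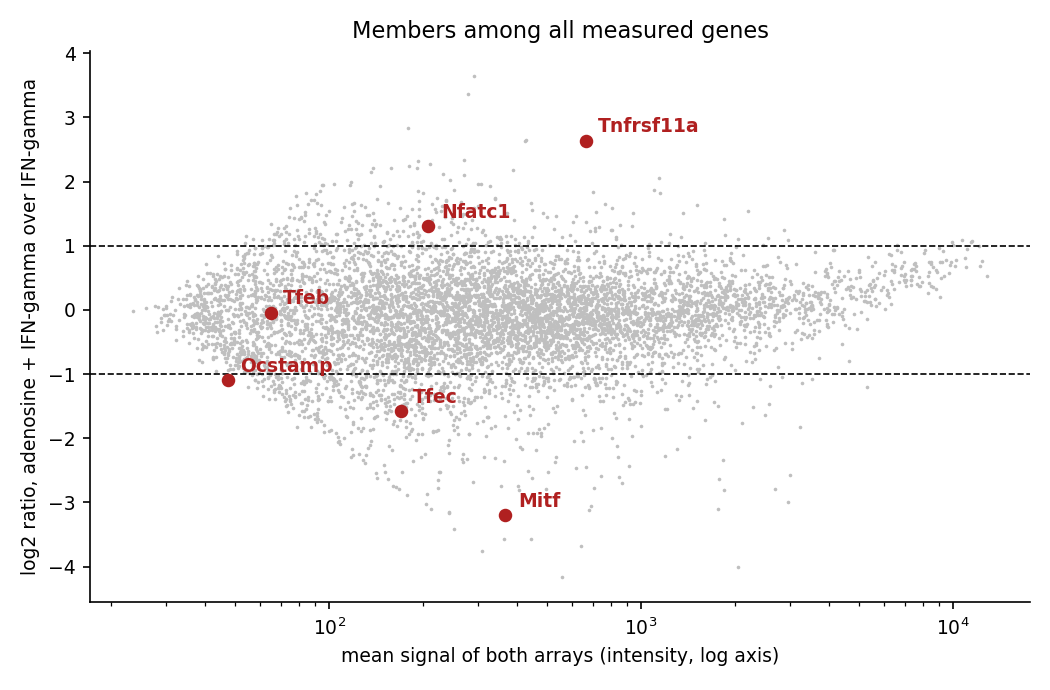
Log2 ratio (adenosine array over IFN-gamma array) against mean signal of both arrays (log axis) for all 6818 measured genes (grey) and the 6 measured members (red), 1 point a gene, with dashed lines at 2-fold. Tnfrsf11a (2.63) and Mitf (-3.20) lie near the upper and lower edges, Nfatc1 and Tfec beyond 2-fold, and Tfeb at -0.04.

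The 4 effector genes among the members had low signals, and 3 of them were below the floor on both arrays. Ocstamp, a membrane protein gene needed for fusion of precursors, read 93.9 with IFN-gamma and 0.3 as deposited, 0.85 after scaling. It was at least 2.13-fold lower with the floor at 44.0 (log2 ratio -1.09), and its log2 ratio was -3.43 with the floor at the 33rd percentile, 8.74. The size of the difference is thus set by the floor, and the gene has 1 probe set (1425386_at). It was measured through the IFN-gamma array alone.

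Acp5, the gene of tartrate-resistant acid phosphatase, read 23.1 and 18.9 after scaling. Ctsk, the collagen-degrading protease cathepsin K, read 39.1 and 24.0. Oscar, a collagen-binding receptor that gives costimulation to osteoclast precursors, read 4.4 and 5.07 by one probe set and 2.5 and 1.69 by the other. All 4 probe sets were below the floor on both arrays, so no fold is given and no order is read from them. Higher Tnfrsf11a and Nfatc1 signals were thus not accompanied by measurable signals of these 3 genes at 4 h.

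The genes through which RANK signals showed no common direction. Of 23 measured genes of the list, out of 26 with a probe set, 2 were 2-fold or more lower and 4 higher, and the median log2 ratio was -0.31. Of all measured genes, 10.1% were 2-fold or more lower and 4.52% higher. The AP-1 factor gene Fosl2 went from 49.6, close to the floor, to 508.8 after scaling, 10.3-fold higher by a single probe set. Traf6, the adaptor that links RANK to NF-kB, went from 103.6 to 324.2 (log2 ratio 1.65), but its other probe sets gave -0.40 and 0.07. Akt1, a survival kinase, had a log2 ratio of 1.51 (0.72 by a second probe set). Jun, another AP-1 subunit, was 3.80-fold lower, from 755.1 to 198.7, and its second probe set gave -1.38. Fos, the AP-1 subunit that osteoclasts require, read 1699 and 1874 after scaling, a log2 ratio of 0.14. Relb, of the NF-kB family, barely reached 2-fold lower (218.3 and 109.1 after scaling), and Junb, at 1.05, was the fourth gene on the higher side. Only Fosl2 of the list was at least 2-fold higher in the values as deposited, where 18 of 25 lay 2-fold or more on the lower side. Of all genes measured in those values, 5605 of 7117 lay there.

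In the CSF1 axis none of 7 measured genes reached 2-fold in either direction by its brightest probe set, and the median log2 ratio was -0.15. Among all measured genes 10.1% were 2-fold or more lower and 4.52% higher, so with 7 genes nothing is read from this count. Second probe sets reached it on the higher side for the adaptor gene Grb2 (1.94), for Cbl (1.40) and, narrowly, for Sos1, and the median was 0.31 with the mean of all probe sets. Quantile scaling gave 1 gene higher, and the deposited values and spiked-in scaling 6 and 3 lower. Over all measured genes, 5605 of 7117 were lower as deposited and 3538 of 6975 with spiked-in scaling. Csf1r, the CSF1 receptor, read 5552 and 5005 after scaling, and Spi1, the gene of PU.1, 1642 and 2035, a log2 ratio of 0.31.

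Receptors and kinases of costimulation through ITAM adaptors had a median log2 ratio of -0.46 over 12 measured genes. Beside 10.1% lower and 4.52% higher among all measured genes, 3 of the 12 were 2-fold or more lower and none higher. These were Vav3, an exchange factor needed for osteoclast function (2.88-fold, from 293.9 to 102.0, with other probe sets at -2.01 and -0.54), the receptor gene Clec5a (log2 ratio -1.38) and the adaptor gene Lcp2 (-1.05, and -1.02 by its second probe set). The adaptors themselves were on the other side, with Tyrobp (DAP12) at 0.44 and Fcer1g at 0.60, short of 2-fold and negative in the deposited values.

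The calcium and calcineurin list covers the route that activates NFATc1, inhibitors of that route and other NFAT genes. Of its 15 measured genes 2 were 2-fold or more lower and none higher (median -0.27), beside 10.1% and 4.52% of all measured genes. Rcan1, a feedback inhibitor of calcineurin whose gene is itself an NFAT target, went from 198.9 to 37.8, below the floor, and was at least 4.52-fold lower. Its second probe set gave -0.84. Ppp3cb, a catalytic subunit of calcineurin, was 3.17-fold lower, with -0.83 by its second probe set. The count of 2 lower genes fell to 1 with quantile, loess and trimmed mean scaling, repeated centring and a 67th percentile floor. It was also 1 without probe sets ending in _a_at, _s_at or _x_at, and 13 as deposited and 10 with spiked-in scaling. In those last settings 5605 of 7117 and 3538 of 6975 of all measured genes were lower. Rcan1 and Nfatc1 therefore lay on opposite sides of the array median. Nfatc2 and Nfatc4, other NFAT genes, were below the floor, and Nfatc3 had a log2 ratio of -0.08.

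Among other osteoclast effectors, 17 of 23 genes with a probe set were measured. Of these, 2 were at least 2-fold lower and 1 higher, beside 10.1% and 4.52% of all measured genes. The median of 0.09 turned to -1.35 in the deposited values, where the median of all measured genes was -1.50. Pstpip2 is counted among these effectors although its loss in mice causes bone inflammation with excess osteoclasts. It was 6.87-fold lower, from 1230 to 179.0 after scaling. Its other probe sets gave log2 ratios of -2.13 and -2.88, so all 3 were lower by at least 4-fold. Snx10, a sorting nexin needed for bone resorption, had a log2 ratio of -1.16, and Ckb, the creatine kinase B gene, of 1.04. Car2, the carbonic anhydrase that supplies protons for resorption, read 1903 and 2816 after scaling (log2 ratio 0.56). Genes used as markers of osteoclasts were thus mixed, with Car2 well above the floor and others below it on both arrays. Those below were Calcr, the calcitonin receptor (4.1 and 5.36 after scaling), Itgb3, the beta 3 integrin (0.5 and 1.13), and Mmp9 (24.7 and 20.6). The markers Dcstamp and Atp6v0d2 were not among the genes with a probe set. Tcirg1 (328.1 and 348.7) and Clcn7 (67.8 and 46.8) of the list were measured.

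Genes that restrain the programme included the largest difference on the lower side in any of the 9 lists. Irf8, a transcription factor that holds NFATc1 in check in precursors, read 5262 with IFN-gamma and 660.4 after scaling, a log2 ratio of -2.99, although its second probe set gave -0.66. Tnfaip3, the gene of the NF-kB inhibitor A20, was 3.72-fold lower, and Bcl6, a repressor of osteoclast genes, 2.69-fold lower (-0.40 by its second probe set). Id3, an inhibitor of helix-loop-helix factors, was 2.80-fold higher (70.7 and 197.6 after scaling). In all, 3 of the 14 genes measured were 2-fold or more lower and 1 higher, beside 10.1% and 4.52% of all measured genes. The list median was -0.37. Tnfrsf11b, the gene of the decoy receptor osteoprotegerin, was below the floor at 2.4 and 0.28.

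A list of other transcription factors with known roles in the lineage had 4 of 8 measured genes at least 2-fold lower and 1 higher. The shares of all measured genes were 10.1% and 4.52%, and the list median was -0.93. With the floor at the 67th percentile 1 gene was lower and the median was -0.40. The lower genes were Tal1 (at least 2.99-fold), Jdp2 (2.57-fold), Runx1 (log2 ratio -1.31, with other probe sets at -1.65, 0.60 and -0.91) and Nfe2l2 (-1.02). Jdp2, an AP-1 family member, favours osteoclast formation in mice, whereas Tal1 and Nfe2l2 are known to restrain it. Zbtb7a was 4.43-fold higher, from 50.1, close to the floor. Prdm1, which represses Irf8 and Bcl6, was below the floor at 20.4 and 8.74 after scaling.

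**Figure D3:**
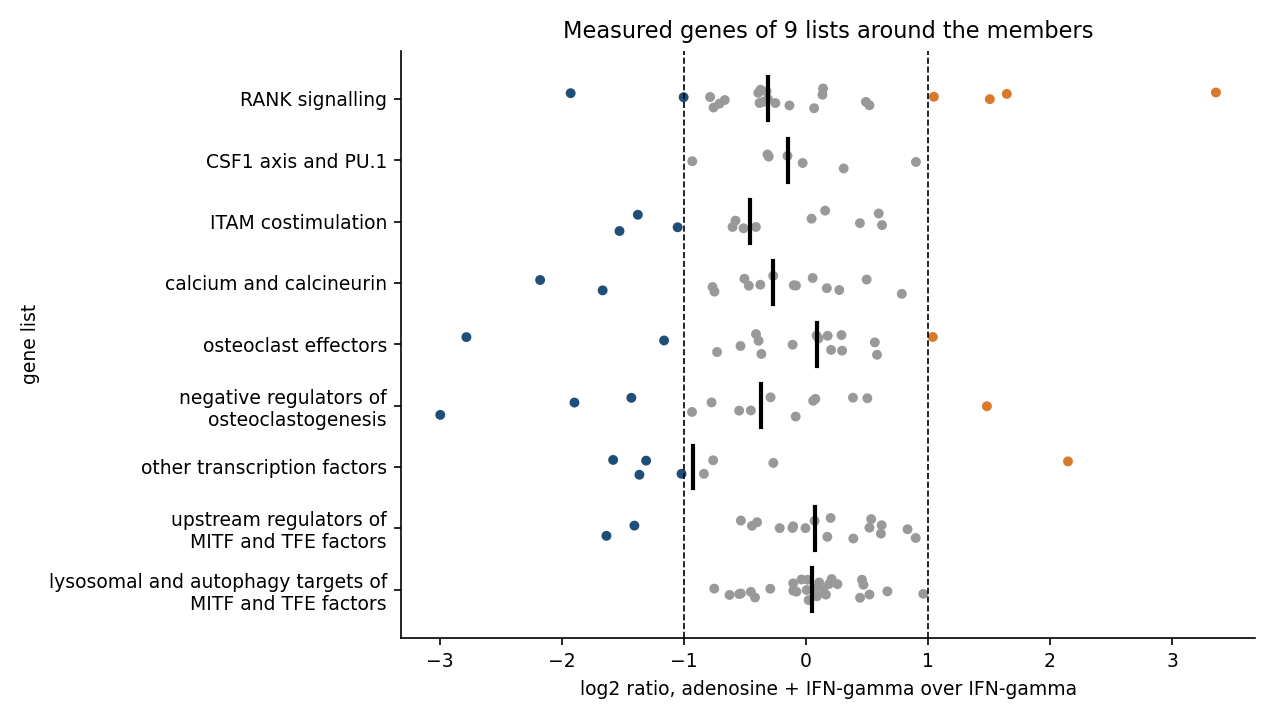
Log2 ratios of the measured genes in 9 lists of genes around the members, 1 point a gene, with bars at the list medians and dashed lines at 2-fold (blue, at least 2-fold lower, orange, at least 2-fold higher). Medians lie between -0.93 for other transcription factors and 0.09 for osteoclast effectors, and no lysosomal target lies beyond 2-fold by its brightest probe set.

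Lysosomal and autophagy genes that MITF and TFE factors bind did not share the low values of Mitf and Tfec. None of its 28 measured genes reached 2-fold in either direction by its brightest probe set, where the shares of all measured genes were those given above, and the median log2 ratio was 0.05. Values ran from -0.75 for Gaa, acid alpha-glucosidase, to 0.96 for Ctsb, the protease cathepsin B, whose other probe sets gave 0.78, -0.92 and -0.46. Gpnmb, a glycoprotein gene and a known MITF target in osteoclasts and melanocytes, read 4978 and 5492 after scaling, a log2 ratio of 0.14. Hif1a, at -0.29, had other probe sets at 0.72 and -1.64. Lamp1, a lysosomal membrane protein gene, had a log2 ratio of 0.46. Trimmed mean scaling and repeated centring each gave 1 gene higher, and leaving out probe sets ending in _a_at, _s_at or _x_at gave 1 lower. As deposited the list median was -1.42 against -1.50 for all measured genes. Many genes of this list are bright, and the brightest genes of the array tended to lie above 0. With loess scaling, which removes that trend, the median was 0.04 against -0.04 for all measured genes. Bcl2, another MITF target, was below the floor at 9.3 and 5.07.

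Upstream regulators, which control these factors mainly through phosphorylation and not transcription, had a median of 0.07 over 19 measured genes. Of these, 2 were at least 2-fold lower and none higher, beside 10.1% and 4.52% of all measured genes. Mtor, the kinase that keeps TFEB in the cytoplasm, went from 285.0 to 91.9 (log2 ratio -1.63), but its second probe set gave 1.55, so the probe sets go opposite ways. Lamtor1, a lysosomal anchor of mTORC1, was at -1.40, with -0.66 and 0.37 by other probe sets. With the mean of all probe sets neither reached 2-fold. Rragd, a GTPase gene that MITF and TFE factors induce, was below the floor at 4.7 and 5.07.

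**Figure D4:**
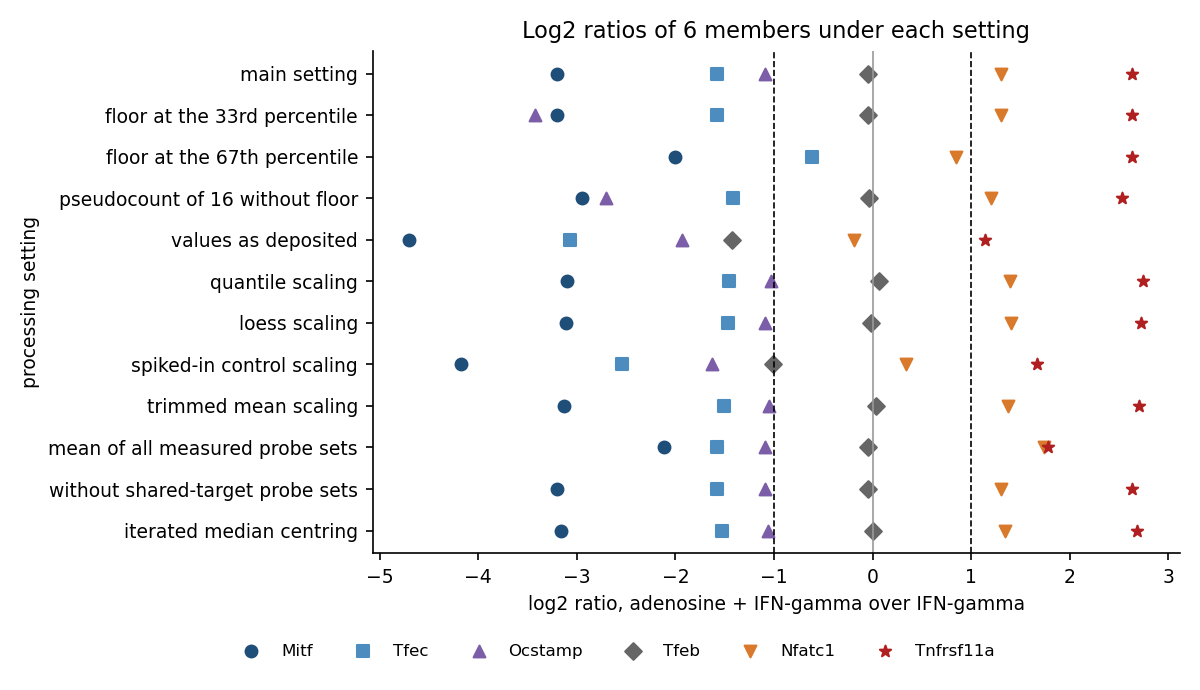
Log2 ratios of the 6 measured members (symbols) under the main setting and 11 other settings of scaling, floor and probe set choice, with dashed lines at 2-fold. Mitf lies at -2.00 or lower and Tnfrsf11a at 1.14 or higher under all 12 settings, whereas Nfatc1 falls to -0.19 in the values as deposited. The setting labelled as without shared-target probe sets leaves out all those ending in _a_at, _s_at or _x_at.

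The line's identity was checked against markers. All 16 macrophage markers were measured, and their signals summed to 48371 with IFN-gamma and to 58195, after scaling, with adenosine. They did not move one way: 8 of the 16 lay above 0 and 8 below, with a median log2 ratio of 0.06. Laptm5 (1.24, other probe sets at -0.41 and 1.96) and Lyz2 (1.05) were 2-fold or more higher, and Fcgr1, an Fc receptor gene, was 2.87-fold lower. Cd68 was at 0.59 and Adgre1 (F4/80) at 0.15, while Aif1 (-0.95), Fcgr3 (-0.94) and Mpeg1 (-0.83) were lower but short of 2-fold. Of markers of melanocytes, the other main site of Mitf, none of 10 was measured, and their summed signals were 43.7 and 86.0, with Dct at 0.4 and 0.28 and Tyr at 1.3 and 13.2 after scaling. No osteoblast or stromal marker of 12 was measured (sums of 51.2 and 76.4). Among them were Tnfsf11, the gene of RANKL, at 0.5 and 9.87, and Pdgfrb, listed at 0 on the adenosine array. None of 12 mast cell and granulocyte markers was measured (sums of 59.7 and 80.6). Of 10 T and B cell markers, Ighm (658.2 and 275.4) and Zap70 (45.9 and 97.0) were measured, and their part in the members' values was not tested. In RNA of whole cultures, fewer cells of a type and less RNA per cell cannot be told apart.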

How the data were processed

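Probe set intensity values of 2 arrays, on a linear scale, were used as deposited by the authors. The submitters' processing notes name GCOS, and neither its signal algorithm nor its scaling target is stated in the labels. Of 22690 probe sets, 64 are controls. Of the other 22626, 20380 had 1 gene symbol in the platform annotation, 691 had several and 1555 were unnamed here, and only those with 1 symbol entered gene results. Symbols were updated through Entrez identifiers and RefSeq (GRCm38.p6).

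Because the deposited values were not on a common level, the median log2 ratio was removed, taken over probe sets at or above the 50th percentile of deposited signals on both arrays. The floor is a convention and no detection limit. The brightest probe set by mean signal stood for each gene, all probe sets of members are given, and 6818 genes were measured. A design of 1 array per treatment allows no test, so genes were counted at 2-fold, and the number of arrays limits the precision. Scatter was estimated from genes with several probe sets, as the root mean square difference of log2 ratios between the brightest pair over the square root of 2. It leaves out spread between cultures and arrays.

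The members and the 9 pathway and 5 marker lists were chosen with earlier results of these data known. The rule for names took up to 4 genes past 2-fold in each pathway list and defining genes below the floor. Further genes, past 2-fold or not, were named after their values were seen. Python 3.11.15, numpy 2.4.6, pandas 2.3.3 and statsmodels 0.14.6 were used. The calculation was tested on simulated arrays. Alternatives were other floors (33rd and 67th percentiles), a pseudocount of 16, other scalings, other probe set rules and thresholds of 1.5-fold and 3-fold.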

Additional observations from a re-analysis of the deposited data

How the results depend on the processing

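No paired analysis was possible because the study has 1 array for each treatment, which also leaves no replicate to omit. Against 3 lower and 2 higher members, a 67th percentile floor and a 3-fold threshold each gave 1 and 1. The values as deposited and spiked-in scaling each left 1 higher member, Tnfrsf11a, and gave 4 lower ones, with Tfeb added at -1.43 and -1.01. The Nfatc1 log2 ratio turned to -0.19 in the values as deposited, the 1 reversal counted among 64 recomputed member ratios. Only genes past 2-fold in the main setting could count as reversed. Tfeb, at -0.04, changed sign to 0.06 with quantile scaling, 0.03 with trimmed mean scaling and 0.003 with repeated centring. Apart from the Nfatc1 reversal, 46 ratios moved by less than the scatter SD of 0.52 and 17 by more. Over all measured genes, 691 were lower and 308 higher. The deposited values gave 5605 and 10, spiked-in scaling 3538 and 33, the 67th percentile floor 328 and 133, a 1.5-fold threshold 1489 and 879, and a 3-fold one 202 and 67. A 33rd percentile floor gave 599 higher. Lower genes were 69.2% of calls in the main setting, 99.8% as deposited, 99.1% with spiked-in scaling and 58.8% with quantile scaling. Median centring repeated until stable, chosen after seeing the data, gave 638 and 345. The cause was not tested beyond how each setting is built. Of 297 recomputed list values 70 moved by more than the scatter SD or, for counts, 1.5 times. Signals near the floor, as for Ocstamp, Tfeb and the second Mitf probe set, limit the sizes given.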
